A study of Mus musculus with 4 samples.

Results

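Cluster 3 is the group of mouse mammary cells that the deposited annotation labels luminal intermediate. Its members were taken as every cell whose deposited cluster number is 3, which gave 2095 of 32439 cells. The cells came from thoracic and abdominal mammary glands of C57BL/6N mice aged 6 weeks, which were digested, enriched for epithelium, sorted for luminal cells and run as droplet 3′ single-cell libraries. The control genotype was ErbB3+/+;MMTV-Cre, here WT, and the mutant genotype was ErbB3V943R/V943R;MMTV-Cre, here V943R, a substitution in the pseudokinase domain that impairs the activator function of ErbB3. Both genotypes carried MMTV-Cre, which recombines in mammary epithelium, and each was 1 pool of 3 mice sequenced as 2 libraries. The libraries are called A and B within a genotype and values are given in the order WT A, WT B, V943R A, V943R B. Since no mouse can be told from another within a pool, differences between genotypes could not be tested over mice and are given by size, and adjusted p values from limma compare the libraries only. Before recombination the mutant allele carries wild-type cDNA of the last exons followed by a foreign 3′ end, so 3′ counts of *Erbb3* may read the allele differently in the genotypes.

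The luminal layer of the mammary gland holds luminal progenitors, which express the receptor tyrosine kinase Kit and can form alveolar, milk-producing cells, and mature luminal cells, which sense estrogen, progesterone and prolactin. Cells that carry markers of both are commonly called intermediate. In droplet sequencing a droplet that captured 1 cell of each kind also carries markers of both, with the RNA of both cells. Cluster 3 was therefore described against cluster 1, labelled luminal progenitor (5385 cells), and against clusters 4 to 11 together, labelled mature luminal (23800 cells). The deposited clusters were drawn from the expression of these same cells, so differences between clusters are descriptions with no test.

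The 4 libraries held 6849 to 9627 cells and 30019745 to 38009351 unique molecular identifiers (UMIs), each the count of 1 captured transcript. Of the 31923 barcodes in the table, 511 occurred in 2 or more libraries, and 71 cells of cluster 3 had such a barcode. Mitochondrial transcripts made up 0.207% to 0.228% of UMIs in cluster 3, 0.197% to 0.22% in cluster 1 and 0.228% to 0.255% in mature luminal cells. A doublet caller, scrublet, called 6 cells of all 32439, too few to have worked as a caller, so its scores are used here only as ranks within a library.

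Cluster 3 was present in each library at a similar share and with more RNA per cell than any other cluster. It held 609, 534, 493 and 459 cells, which is 6.33% (95% exact binomial interval 5.85 to 6.83), 5.93% (5.45 to 6.43), 7.2% (6.6 to 7.84) and 6.6% (6.03 to 7.21) of the cells of each library. The V943R shares lay above the WT shares, and the interval of each V943R library overlapped with that of a WT library. With cluster 11, a mature luminal cluster that is smaller in V943R, left out of the denominator, the shares were 7.45%, 7.02%, 7.55% and 6.95%, and the genotypes overlapped. By UMIs, cluster 3 took a larger part of each library, 10.7%, 9.56%, 13.3% and 11.7%. These intervals, and all others given, cover counting error only.

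Depth set cluster 3 apart from both references in every library. Its median cell held 5314, 6061, 6756 and 7009 UMIs, against 1719, 1964, 1757 and 2016 in cluster 1 and 3246, 3809, 3870 and 4294 in mature luminal cells. The ratio to mature luminal cells was 1.64, 1.59, 1.75 and 1.63, and the ratio to cluster 1 was 3.09, 3.09, 3.85 and 3.48. No other of the 13 clusters reached the median of cluster 3, and the nearest were cluster 5 at 4570, 5562 and 5823 in WT A, WT B and V943R B and cluster 6 at 5455 in V943R A. The sum of the medians of cluster 1 and mature luminal cells was 4965, 5773, 5627 and 6310 UMIs, and cluster 3 stood at 1.07, 1.05, 1.2 and 1.11 times that sum. Its median number of detected genes was 2373, 2596, 2826 and 2890, and it supplied 20.7% to 29.2% of the deepest 5% of cells of a library. The highest 6% of doublet scores of each library held 41.9%, 56%, 48.9% and 52.3% of cluster 3, against 2.38% to 3.31% of cluster 1 and 2.28% to 3.52% of mature luminal cells.

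**Figure D1:**
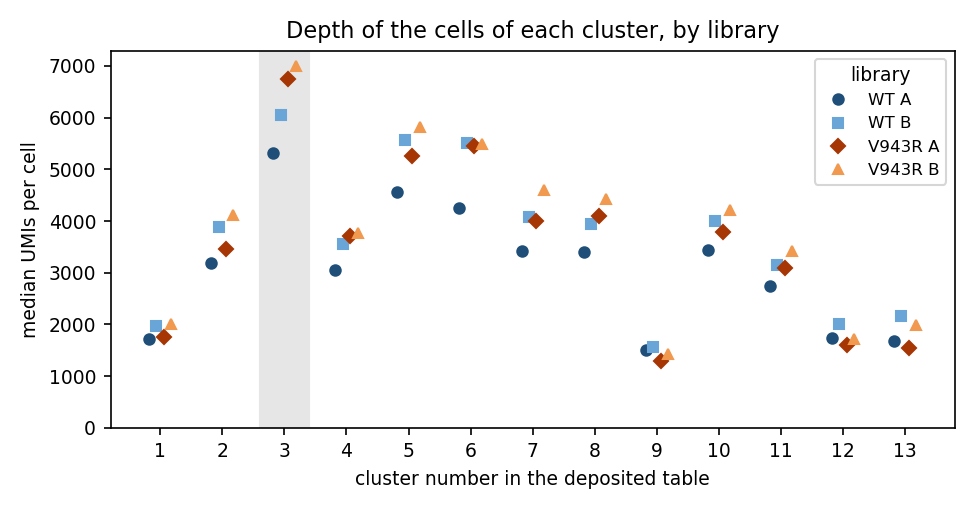
Median UMIs per cell (vertical axis) for each of the 13 deposited clusters (horizontal axis), with 1 point per library. Cluster 3 is the highest in all 4 libraries, at 5314 to 7009 UMIs.

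The 4 genes given as markers of these cells were all present in cluster 3 at levels between those of the references. *Kit* (chr5:75574916-75656722, GRCm38, plus strand), the progenitor receptor kinase, measured 89.0, 99, 95.6 and 98.7 CPM (counts of UMIs per 1000000) in cluster 3, 240, 245, 285 and 293 in cluster 1, and 2.28 to 3.74 in mature luminal cells. *Wfdc18* (chr11:83709015-83711348, plus strand), a secreted whey acidic protein-like inhibitor, was at 3790, 3833, 3477 and 3602 CPM, with 13217 to 13604 in cluster 1 and 101 to 129 in mature luminal cells. Both progenitor genes thus stood lower in cluster 3 than in cluster 1 and far above mature luminal cells, in every library.

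*Prlr* (chr15:10177238-10349180, plus strand), the prolactin receptor, measured 1632, 1679, 1517 and 1632 CPM in cluster 3, against 194 to 257 in cluster 1 and 1858 to 2167 in mature luminal cells. *Cited1* (chrX:102247381-102252181, minus strand), a transcriptional co-regulator of estrogen-responsive genes, measured 960, 1018, 651 and 739 CPM, against 134 to 268 and 1066 to 1500. These hormone-sensing genes were nearer to mature luminal cells, and no gene of the 4 was highest in cluster 3.

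The wider lists of each lineage showed the same order in sum and for most genes. All 18 luminal progenitor genes with 50 or more UMIs in cluster 3 lay between the references, and the 20 genes of the list summed to 8980, 9410, 7860 and 8270 CPM, against 29600 to 30900 in cluster 1 and 534 to 598 in mature luminal cells. Among them *Lcn2*, an iron-siderophore-binding defense protein, was at 1191 CPM pooled over libraries, with 4111 in cluster 1 and 33.1 in mature luminal cells. *Trf*, the iron carrier transferrin, was at 659, 2186 and 16.4 CPM in the same order. *Elf5*, a transcription factor of the alveolar lineage, was at 102, 336 and 21.4 CPM. *Cxcl1*, also on this list, lay between in the opposite order, at 79.9, 53.3 and 105 CPM.

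Of 18 mature luminal genes with 50 or more UMIs, 17 lay between the references. The list summed to 18400, 19100, 18000 and 18500 CPM in cluster 3, against 3480 to 4120 in cluster 1 and 26600 to 28200 in mature luminal cells. *Ptn*, the growth factor pleiotrophin, was at 7599 CPM, with 1457 in cluster 1 and 11363 in mature luminal cells. *Areg*, the EGFR ligand amphiregulin, was at 2742, 356 and 4062 CPM, and *Pgr*, the progesterone receptor, at 112, 16.9 and 151 CPM. *Wnt4*, a signal that mature luminal cells send to other cells, was the exception at 102 CPM, above its 17.7 in cluster 1 and its 93.5 in mature luminal cells. *Tnfsf11*, which encodes RANKL, had no UMI in cluster 3, in cluster 1 or in mature luminal cells.

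The milk genes and the sum of the defense genes followed the progenitor pattern. The alveolar and milk list summed to 571 to 801 CPM in cluster 3, against 2370 to 2940 in cluster 1 and 21.8 to 25.6 in mature luminal cells, and all 6 members with 50 or more UMIs were between. *Csn3*, kappa-casein, was at 499 CPM with 1978 in cluster 1, and *Lalba*, a subunit of lactose synthase, at 63.9 CPM with 241. The late milk genes *Wap* and *Glycam1* had no UMI in cluster 3. The defense list, which shares *Lcn2*, *Ltf*, *Cd14* and *Cxcl1* with the progenitor list, summed to 1730 to 2340 CPM, between 6560 to 7190 in cluster 1 and 174 to 207 in mature luminal cells. *Ltf*, the iron-binding milk protein lactoferrin, was at 431 CPM with 1534 in cluster 1. *Cxcl1* and *Slpi* of the defense list had the opposite order when pooled over libraries. *Cxcl1*, a chemokine, was at 79.9 CPM in cluster 3, 53.3 in cluster 1 and 105 in mature luminal cells, and *Slpi*, a protease inhibitor, at 9.76, 7.42 and 10.7 CPM.

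The main luminal keratins were lowest in cluster 1 and highest in mature luminal cells, with cluster 3 between. *Krt19* was at 8652 CPM in cluster 3, 4492 in cluster 1 and 12392 in mature luminal cells, and *Krt18* at 8340, 5493 and 9345 CPM. The luminal regulators, a list of 22 transcription factors and co-factors, had 18 of 21 measured members between the references. *Sox9*, active in progenitors in several epithelia, was nearer to mature luminal cells at 614 CPM, with 343 in cluster 1 and 631 in mature luminal cells, and *Gata3*, a factor that maintains luminal identity, was at 999, 483 and 1227 CPM. In the Notch list, whose receptors act in luminal fate choice, 5 of 8 measured members were between, among them *Notch1* at 56.7 CPM, with 76.7 in cluster 1 and 29.4 in mature luminal cells. *Notch3* was above both, at 79.0 CPM with 69.3 and 53.5. *Hes1*, a Notch target, was below both, at 466 CPM with 523 and 530.

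Markers of cells that the sort was meant to remove were low. The basal list of 12 genes summed to 66.7 to 123 CPM in cluster 3, between 180 to 252 in cluster 1 and 25.5 to 32.2 in mature luminal cells, and its defining gene *Krt5* was at 1.1 to 1.86 CPM. The immune list summed to 12.9 to 39.6 CPM with *Cd3e* at 0, the stromal list to 5.03 to 13.1 CPM, and the endothelial list to 3.17 to 6.78 CPM. Only 2 immune genes, 1 stromal gene and 0 endothelial genes had 50 UMIs in cluster 3.

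To place cluster 3 gene by gene, all genes at least 4-fold apart between cluster 1 and mature luminal cells with 50 or more CPM in the higher of them were used. A position of 1 stands for the level in cluster 1 and 0 for the level in mature luminal cells. All 233 genes higher in cluster 1 lay between the references in every library, with median positions of 0.3, 0.32, 0.28 and 0.28. The 162 genes higher in mature luminal cells had medians of 0.29, 0.31, 0.26 and 0.25, and 154 to 160 of them lay between. On this linear scale the progenitor and mature programs were displaced by nearly the same part, and on the log2 scale they were not, with medians of 0.596 and 0.138 as the mean over libraries. On the linear scale the V943R libraries lay nearer to mature luminal cells than the WT libraries on both sides.

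Few genes left this common position. On the progenitor side, positions ran from 0.13 for *Idh1*, cytosolic isocitrate dehydrogenase, to 0.48 for *Spns2*, a sphingosine phosphate transporter. On the mature side the low end was *Slc7a2*, a cationic amino acid transporter, at -0.12 and *Wnt4* at -0.11, both above their level in mature luminal cells. The high end was *Ube2c*, a ubiquitin-conjugating enzyme of mitosis, at 0.89, then *Sbp*, at 0.74, *Krt4* at 0.58 and *Fgb*, the fibrinogen beta chain, at 0.54. *Sbp* varied from 0.43 to 0.94 between libraries.

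A fit of cluster 3 as a weighted sum of the mean profiles of cluster 1 and mature luminal cells was then made in each library. It gave cluster 1 a weight of 31.5%, 32.2%, 27.7% and 29.5%. Over the 7830 to 8174 genes with 50 or more UMIs, the fitted level was within 1.25-fold of the measured level for 88.6%, 87.4%, 85.8% and 85.6% of genes and within 1.5-fold for 98.7%, 98.6%, 98.1% and 98.3%. Mature luminal cells alone came within 1.5-fold for 89.7% to 90.8% of genes and cluster 1 alone for 70.3% to 74.6%. For comparison, the median cluster 1 cell supplies 34.6%, 34.0%, 31.2% and 31.9% of the UMIs when 1 median cell of each reference is added together, above the fitted weight in each library.

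**Figure D2:**
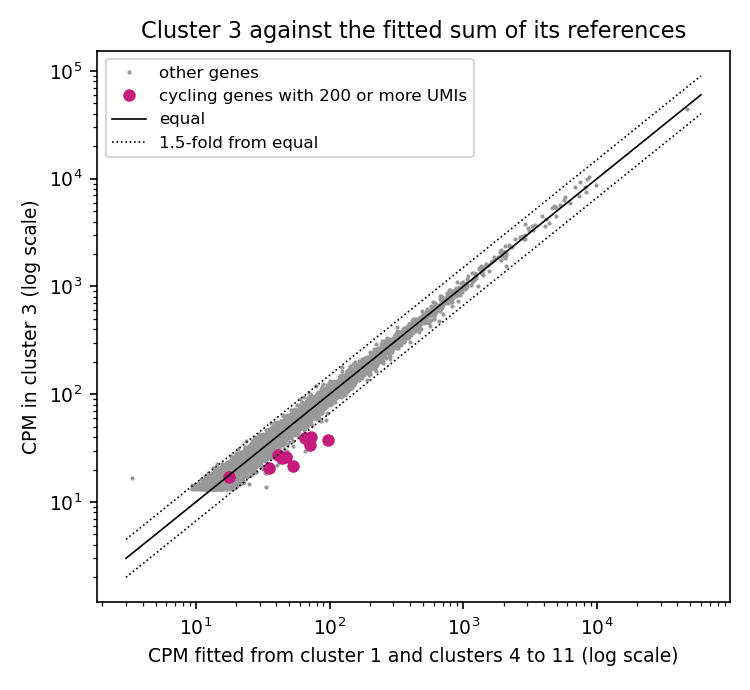
Level of each gene in cluster 3 (vertical axis, CPM) against the level fitted from a weighted sum of cluster 1 and mature luminal cells (horizontal axis, CPM), both on log axes, pooled over libraries, for 7959 genes with 200 or more UMIs in cluster 3. Most genes lie on the line of equality, and the cycling genes, marked in color, lie below it except *Pcna*, which is close to it at a ratio of 0.975; the median of the cycling list is above the fit when clusters 5 and 6 are left out.

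The same sum described most other clusters less closely. Among genes with 200 or more UMIs, 92.8% in cluster 3 were within 1.25-fold of the fit, and cluster 1 took 30.2% of the weight. Clusters 4, 7 and 8, which form part of the mature luminal reference, reached 93.2%, 89.9% and 90.3%, with 0 to 0.284% of the weight on cluster 1. The cycling clusters 2, 5 and 6 reached 45.9%, 51.6% and 50.9%, and clusters 10 and 11 reached 77.3% and 75.1%. Clusters 4 to 11 are part of their own reference, which draws their fit closer, and cluster 3 is not.

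No gene stood well above both references throughout. With 1.5-fold over both references in every library required, 0 of 12202 tested genes met the rule (0%) and 2 did without WT A or without WT B, while the same rule found 41 to 491 genes in each of clusters 2 and 4 to 11. For this count each of clusters 4 to 11 was left out of its own mature luminal reference, so their references differ from that of cluster 3. When all libraries were pooled, 15 genes were 1.5-fold above both references, and the UMIs of the 3 with the highest ratios came from few cells. *Defb6*, a beta-defensin, had 81 UMIs in 3 cells with 70.4% of them in 1 cell. *Krt71*, a hair follicle keratin, had 68 UMIs in 4 cells with 95.6% in 1 cell. *Penk*, the enkephalin precursor, had 254 UMIs in 17 cells with 26.4% in 1 cell.

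Against every single luminal cluster, 17 of 12202 genes were highest in cluster 3 in all 4 libraries, by small margins. The largest ratios to the next cluster were 1.17 for *Prrc2b*, 1.16 for *Gm12857*, a processed pseudogene, 1.11 for *Senp6*, a SUMO protease, and 1.1 for *Jund*, an AP-1 transcription factor. They were followed by *Mknk2*, a kinase of the translation factor eIF4E, at 1.09, and by the ribosomal protein gene *Rps14* at 1.07. The pseudogenes *Gm6204* at 1.08 and *Gm5805* at 1.07 and the gene *Serf2* at 1.07 were also among the 10 with the largest ratios. Reads of pseudogenes and ribosomal protein genes can be shared between near-identical copies.

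Of 11048 tested genes, 11 were at least 1.5-fold below both references in every library (0.0996%). They were *Pbk*, *Ndc80*, *Incenp*, *Cenph* and *Spc24*, which act in mitosis, *Rrm2*, *Pclaf* and *Clspn*, which act in DNA replication, *Rad51ap1* and *Fignl1*, which act in recombination repair, and *Mlf1*. *Rrm2*, a subunit of ribonucleotide reductase, measured 13.8, 14.3, 13.6 and 13.5 CPM in cluster 3, 22.2 to 31.6 in cluster 1 and 29.5 to 44.5 in mature luminal cells. *Pclaf*, a PCNA-binding protein, measured 21.0, 17.9, 24.6 and 24.9 CPM against 37.7 to 50.3 and 48.0 to 61.3. *Spc24*, a kinetochore protein, measured 23.7, 24.8, 25.9 and 32 CPM against 42.3 to 54.9 and 50.8 to 56.5. In all 3 genes, every library of cluster 3 lay below every library of both references. With the cycling clusters 5 and 6 left out of the mature luminal reference, 0 genes met the rule, and without library WT A 20 genes did.

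The place of the cycling genes depended on the cycling clusters 5 and 6 in the mature luminal reference. The 11 measured members of the cycling list had a median log2 ratio to the fit of -0.84, and 10 of them were more than 1.25-fold below it, as were 4.66% of all genes with 50 or more UMIs. With clusters 5 and 6 left out of the reference, the median was 0.46, 0 of the 11 were more than 1.25-fold below the fit and 6 were above it, against 2.2% and 7.53% of all genes. *Ube2c* was at 955 CPM in cluster 6, 37.9 in cluster 3, 26.1 in cluster 1 and 16.3 in the mature luminal cells outside clusters 5 and 6. The following ratios are to the fit with clusters 5 and 6 included. *Ube2c* (chr2:164769898-164778822, plus strand) was at 0.392 of its fitted level, *Cdk1*, the mitotic kinase, at 0.403 and *Top2a*, a topoisomerase of dividing cells, at 0.47. Outside that list, *Cdc20*, a mitotic regulator, was at 0.437, and the replication helicase genes *Mcm3* and *Mcm7* were at 0.591 and 0.55. Over all 7959 genes with 200 or more UMIs, 32 were below 1/1.5 of the fit and 7 above 1.5 times it. The central 98% of log2 ratios ran from -0.43 to 0.44.

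Departures upward were small. *Celsr2*, an adhesion receptor of planar cell polarity, was at 1.51 times the fit, with 1.43, 1.42, 1.6 and 1.62 by library. *Slc7a2* was at 1.5 times the fit, with 1.37, 1.6, 1.51 and 1.6. *Fat1*, a protocadherin, was at 1.4 times the fit. All 4 libraries were above 1 for *Celsr2* and *Slc7a2*. *Penk*, at 5.04 times the fit, ranged from 0 in WT B to 19.4 in WT A.

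When each cluster was allowed its own weight, the mature part of cluster 3 was spread over most of the mature luminal clusters. Clusters 7, 8 and 10 took 17.0% to 28.1%, 6.8% to 30.3% and 20.3% to 24.2% of the mature luminal weight, against 17.6% to 24.5%, 10.3% to 14.4% and 19.0% to 19.5% of mature luminal cells. Cluster 11 took 21.0% and 30% in WT, and 2.03% and 3.4% in V943R. Its share of mature luminal cells was 19.8% and 20.6% in WT and 6.72% and 7.22% in V943R, so both the weight and the share were lower in both V943R libraries. Clusters 2 and 9 took 0% in every library, and of the cycling clusters, cluster 5 took at most 0.99% while holding 5.74% to 7.2% of mature luminal cells, and cluster 6 took 3.8% to 8.37% while holding 6.6% to 8.64%.

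**Figure D3:**
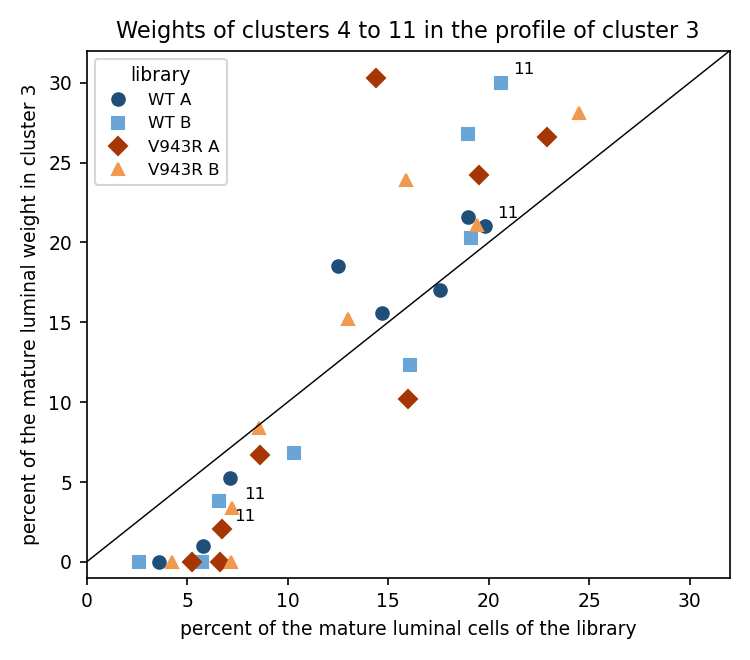
Share of the mature luminal weight that each of clusters 4 to 11 took in the fit of cluster 3 (vertical axis, percent) against its share of mature luminal cells (horizontal axis, percent), with 1 point per cluster and library. Cluster 11 lies at 21.0% and 30% of the weight in WT and at 2.03% and 3.4% in V943R.

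Single cells of cluster 3 lay between the references, as their mean did. Each cell was given a position from the UMIs of the 233 and 162 genes above. The median was 0.31, 0.31, 0.26 and 0.26, and 76.5%, 76.8%, 67.3% and 64.5% of the cells lay between 0.2 and 0.8. In cluster 1, 7.71% of cells lay in that range, and in mature luminal cells 3.71%. In the rare clusters 12 and 13, 85% of 240 cells did, with a median of 0.55, so the range is not limited to cluster 3. Those cells had a smaller share of their UMIs on both gene sets, with medians of 2.22% and 1.39% of their UMIs on the 233 and 162 genes, against 3.18% and 7.17% in cluster 3. The central 90% of cluster 3 cells ran from 0.05 to 0.57, and 0.239% of them were at 0.8 or above.

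**Figure D4:**
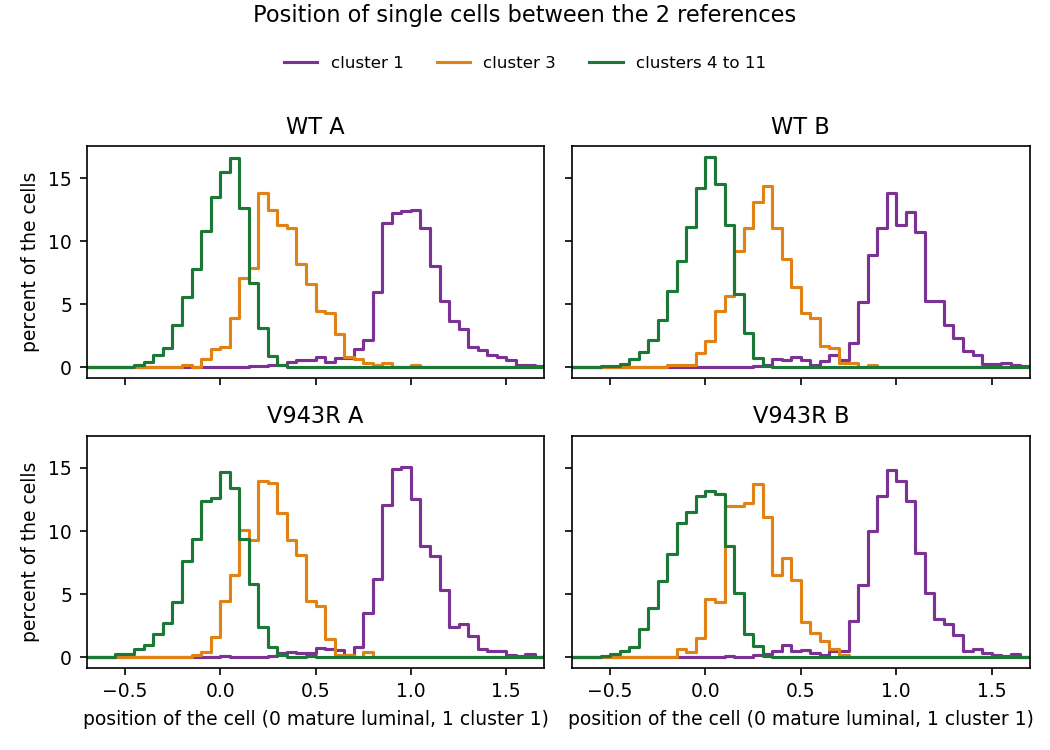
Distribution of single-cell positions (horizontal axis, 0 at mature luminal and 1 at cluster 1) as percent of the cells of each class (vertical axis), in 1 panel per library. Cluster 3 forms 1 broad peak with a median of 0.26 to 0.31, between the peaks of the references.

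Cells nearer to the mature end held more RNA. In 5 equal groups ordered by position, with median positions of 0.1, 0.21, 0.28, 0.37 and 0.5, the median depth was 7256, 6927, 6286, 5772 and 5264 UMIs. Spearman's rho between position and UMIs was -0.32, -0.29, -0.32 and -0.32 over 609, 534, 493 and 459 cells, which share a library and whose position was computed from part of the same UMIs. Splitting each cell's UMIs by its position gave a median of 1583, 1804, 1723 and 1820 UMIs for the cluster 1 part, against 1719, 1964, 1757 and 2016 in whole cluster 1 cells. The mature part had 3506, 4103, 4945 and 5005 UMIs, against 3246, 3809, 3870 and 4294 in whole mature luminal cells. The first was below and the second above its reference in all libraries.

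Not all cells of cluster 3 were deep. In all, 203 cells (64, 47, 38 and 54 by library) had fewer UMIs than the median mature luminal cell of their library. Their median position was 0.39, and 26.1% of them were among the highest 6% of doublet scores. The other 1892 cells had a median position of 0.27, and 51.9% of them were among those scores. The part that droplets with more than 1 cell have in cluster 3 was not tested by any measure independent of expression, and the label luminal intermediate rests on the same markers that such droplets would carry.

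Both programs were detected together in nearly every cell. After each cell was thinned to 1000 UMIs, which left out 2 cells of cluster 3, 196 of cluster 1 and 86 mature luminal cells, 98.9% of cluster 3 cells had UMIs of both the progenitor and the mature luminal list. The share was 84.6% in cluster 1, 38.5% in mature luminal cells and 41.9% in the rare clusters 12 and 13, so that a single UMI of each list reads partly as background. With 10 or more UMIs of each list required, the share was 37.6% (95% exact binomial interval 35.5 to 39.7) in cluster 3, with 39.0%, 39.7%, 35.0% and 35.9% by library. It was 2.72% in cluster 1, 0.0337% in mature luminal cells and 0.424% in clusters 12 and 13. Before thinning the share in cluster 3 was 98.5%, at a median depth higher than in the other classes. Among the 203 shallow cells, 50.2% passed 10 of each, and 36.2% of the others.

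*Kit* and *Prlr*, the pair that names the intermediate cells, were found together in 8.07% of cluster 3 cells (6.94 to 9.33) at 1000 UMIs, or 169 of 2093 cells. Independent detection at the shares of each gene, 10.5% and 77.4%, would give 8.14%. Together they were found in 3.55% of cluster 1 cells, 0.228% of mature luminal cells and 0.847% of cells in clusters 12 and 13. Without thinning, 45.7% of cluster 3 cells had both. *Wfdc18* and *Cited1* were found together in 43.4%, 41.4%, 32.7% and 35.1% of cluster 3 cells at 1000 UMIs, against 7.77% in cluster 1 and 4.59% in mature luminal cells, and both V943R libraries were below both WT libraries.

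The comparison of genotypes within cluster 3 asked which genes differed with the V943R allele in these cells. Genes were called by a rule of size, which asked for a 1.5-fold ratio, 50 or more UMIs in the higher genotype and no overlap between the libraries of the genotypes. Of 10525 genes tested, 298 were higher in V943R (2.83%) and 108 were lower (1.03%), and the median log2 ratio over all genes was 0. Within cluster 3, the pair of libraries of each genotype differed beyond sampling of UMIs, by a chi-square divided by its degrees of freedom of 1.57 for WT and 1.81 for V943R. A limma fit of library sums, which compares libraries and not mice, called 214 genes higher and 93 lower at an adjusted p of 0.05. The counts by size depended on single libraries: 479 genes were higher without WT A and 161 without V943R A, and 164 and 271 were lower without V943R A and V943R B. With the 6% highest doublet scores left out, 267 genes were higher and 149 lower.

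*Erbb3* (chr10:128567523-128589652, minus strand), the targeted gene, was lower in V943R. It measured 69.6, 73.5, 37.4 and 39.4 CPM, with a log2 ratio of -0.90 (95% counting interval -1.11 to -0.69). The same gene had log2 ratios of -0.79 in cluster 1 and -1.11 in mature luminal cells, so the lower count was not limited to cluster 3. *Erbb2* (chr11:98412470-98437716, plus strand), the receptor that pairs with ErbB3, measured 46.0, 48.4, 49.7 and 50 CPM, a log2 ratio of 0.08 (-0.13 to 0.29). Of 10 tested members of the ErbB list, *Erbb3* alone met the rule, against 1.03% of all tested genes called lower. *Areg* was at 2515, 2325, 3049 and 3045 CPM, a log2 ratio of 0.33. *Dusp6*, a phosphatase induced by ERK signaling, was at 149, 156, 114 and 121 CPM, a log2 ratio of -0.37. Neither reached 1.5-fold. *Dusp6* was also lower in cluster 1 at -0.26 and in mature luminal cells at -0.42. In cluster 3, *Errfi1* was higher in V943R, at 103, 126, 130 and 148 CPM, a log2 ratio of 0.28. *Spry4* was also higher, at 1.03 on 54 UMIs. *Spry2* overlapped between genotypes, at 57.4, 57.5, 50.5 and 62.7 CPM. A change of ERK signaling was not tested.

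Of the 4 markers, none met the rule, which at 2.83% higher and 1.03% lower over all tested genes is near the background. *Kit* overlapped between genotypes with a log2 ratio of 0.05 (-0.10 to 0.20). *Prlr* had -0.07 and *Wfdc18* -0.11. *Cited1* was lower in both V943R libraries with a log2 ratio of -0.51 (-0.56 to -0.46), below the size required, and its ratios in cluster 1 and mature luminal cells were -0.53 and -0.45. In the limma fit its adjusted p was 0.00086.

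**Figure D5:**
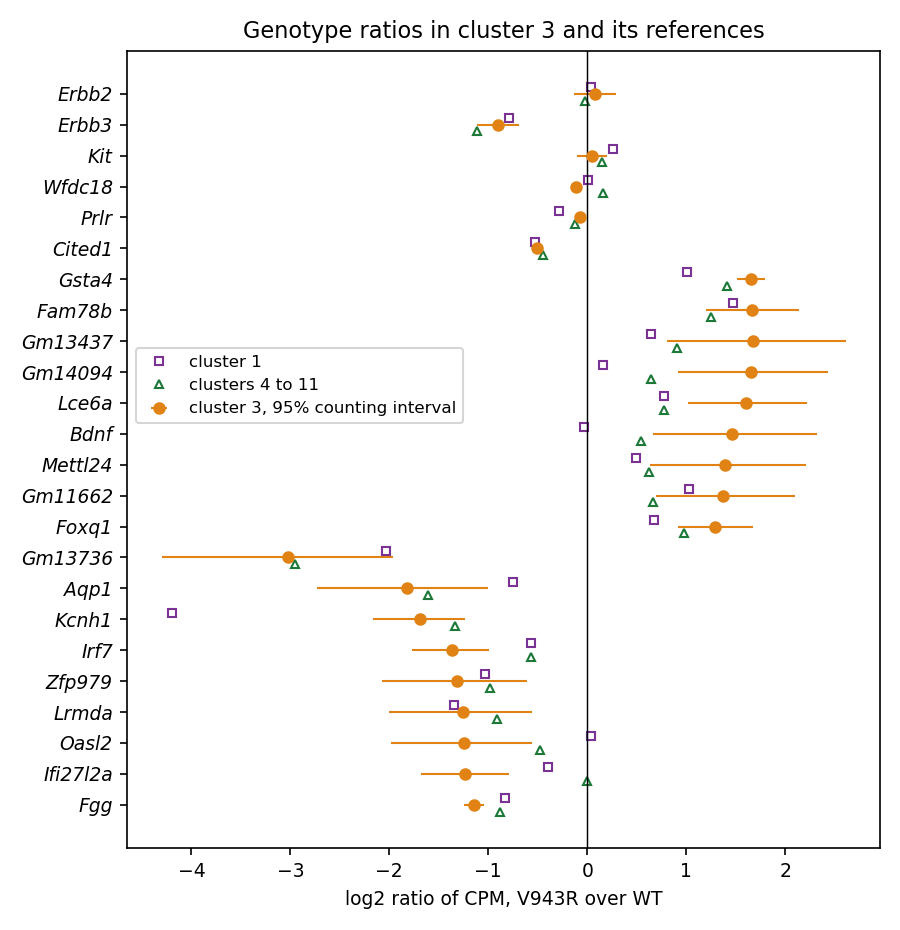
The log2 ratio of V943R to WT (horizontal axis) for named genes (vertical axis), as filled points with 95% counting intervals in cluster 3 and as open points in cluster 1 and mature luminal cells. *Gsta4* is above 0 and *Erbb3* and *Fgg* are below 0 in all 3.

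Among 10 of the genes with the largest ratios higher in V943R, the one with the most UMIs was *Gsta4* (chr9:78182774-78209349, plus strand), a glutathione transferase that detoxifies lipid aldehydes. It measured 71.0, 73.7, 225 and 230 CPM in cluster 3, a log2 ratio of 1.65 (1.51 to 1.8). In mature luminal cells it measured 159, 159, 418 and 425 CPM. *Fam78b* measured 5.32, 8.53, 24.6 and 18.8 CPM, a log2 ratio of 1.66, with 1.25 in mature luminal cells. *Foxq1*, a forkhead transcription factor, measured 10.1, 12.4, 23.8 and 31.2 CPM, a log2 ratio of 1.29. It was also called higher in cluster 1 at 0.67 and in mature luminal cells at 0.98. *Greb1*, described below, had a ratio in cluster 3 nearly equal to that of *Foxq1* on fewer UMIs and is not among the 10. *Lce6a*, a late cornified envelope gene, had a log2 ratio of 1.60, and *Bdnf*, a neurotrophin, had 1.46 on 52 UMIs in V943R. *Mettl24* had 1.39. The processed pseudogenes *Gm13437*, *Gm14094* and *Gm11662* had 1.67, 1.65 and 1.37, and their reads may belong to parent genes. *Krt71* met the rule with 0 UMIs in WT and 68 in V943R, but 95.6% of them were in 1 cell. With the 6% highest doublet scores of each library left out, *Lce6a*, *Bdnf*, *Mettl24* and the 3 pseudogenes no longer met the rule, at log2 ratios of 0.84 to 1.76. These ratios still exceeded 1.5-fold, so the genes missed the minimum of UMIs or had overlapping libraries. That step left out 41.9%, 56%, 48.9% and 52.3% of cluster 3 cells, and these genes had 50 to 102 UMIs in V943R before it.

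Among the 10 genes with the largest ratios lower in V943R, the one with the most UMIs was *Fgg* (chr3:83007724-83015049, plus strand), the fibrinogen gamma chain. It measured 326, 345, 145 and 159 CPM in cluster 3, a log2 ratio of -1.14 (-1.25 to -1.04). In mature luminal cells it was at 441 to 446 CPM in WT and 238 to 244 CPM in V943R. *Fgb*, with more UMIs, measured 613, 625, 306 and 370 CPM, a log2 ratio of -0.88 (-0.95 to -0.81). Both fibrinogen genes are on the mature luminal list, of which 2 of 18 tested members were lower, against 1.03% of all tested genes. The study had already reported lower *Fgg* and *Fgb* in V943R within cluster 11. The lists were made with earlier results known, so this count is no separate support for a change of mature luminal genes. *Kcnh1*, a potassium channel, measured 22.6, 23.1, 4.77 and 9.52 CPM, a log2 ratio of -1.69, with -1.34 in mature luminal cells.

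*Irf7*, a regulator of the interferon response, measured 21.0, 31.9, 10.8 and 9.52 CPM, a log2 ratio of -1.37 (-1.77 to -0.99). The interferon-induced genes *Ifi27l2a* and *Oasl2* had -1.23 and -1.25. *Aqp1*, a water channel, had -1.82 on 54 and 16 UMIs, and *Zfp979* and *Lrmda* had -1.32 and -1.26. *Aqp1* had -0.75 in cluster 1, and *Zfp979* and *Lrmda* had -0.98 and -0.91 in mature luminal cells. *Gm13736*, a processed pseudogene, had -3.02, with -2.03 in cluster 1 and -2.95 in mature luminal cells. *Defb6* met the rule with 81 UMIs in WT and 0 in V943R, of which 70.4% were in 1 cell. In the limma fit of library sums, *Oasl2* (adjusted p = 0.0792), *Lrmda* (0.0532), *Krt71* (0.0836) and *Mettl24* (0.133) missed the threshold of 0.05. With the 6% highest doublet scores left out, *Aqp1*, *Zfp979*, *Lrmda*, *Oasl2* and *Gm13736* no longer met the rule of size, at log2 ratios of -1 to -3.19. Those ratios also still exceeded 1.5-fold, and these genes had 54 to 62 UMIs in WT before that step.

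By list, 0 of 17 tested luminal progenitor genes met the rule, near the background of 2.83% higher and 1.03% lower over all tested genes. Their median log2 ratio was -0.20 against 0 over all genes. *Ltf* was at 537, 489, 322 and 386 CPM, a log2 ratio of -0.54. In the milk list, 2 of 5 tested genes were lower, against 1.03% of all tested genes, and the median was -0.41. *Lalba* measured 78.7, 94.6, 42.7 and 41.8 CPM, a log2 ratio of -1.03 (-1.23 to -0.84). *Btn1a1*, a milk fat globule protein, had -0.61. In cluster 1, where these genes are highest, the ratios were -0.62 and -0.20.

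In the cycling list, 4 of 11 tested genes were higher in V943R, against 2.83% of all tested genes, and 0 lower, with a median log2 ratio of 0.50 against 0 over all genes. *Ube2c* measured 27.9, 20.9, 47.9 and 53.7 CPM, a log2 ratio of 1.05 (0.80 to 1.31), against 0.20 in cluster 1 and 0.22 in mature luminal cells. *Mki67*, *Birc5* and *Ccnb2*, all markers of dividing cells, had 0.72, 0.66 and 0.63 in cluster 3. The same genes had 0.45, 0.42 and 0.36 in cluster 1 and 0.23, 0.12 and 0.32 in mature luminal cells. For all 4 genes in cluster 3, both V943R libraries were above both WT libraries, which the rule requires of any called gene.

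Among the keratins, *Krt8*, a partner of *Krt18* in luminal filaments, measured 673, 673, 1097 and 934 CPM, a log2 ratio of 0.60, and *Krt6a* measured 43.3, 47.0, 98.4 and 113 CPM, a log2 ratio of 1.22. In cluster 1, *Krt8* measured 467, 444, 605 and 560 CPM, and in mature luminal cells 945, 917, 1484 and 1292. *Krt6a* measured 2.97, 3.99, 14.2 and 22.5 CPM in cluster 1, and 54.4, 70.5, 133 and 133 in mature luminal cells. Both genes were thus also higher in both V943R libraries of each reference. The other 5 keratins did not meet the rule, so that 2 of 7 were called higher against 2.83% of all tested genes, and the median of the 7 was 0.07. In the list of steroid and prolactin response, 2 of 12 tested genes were higher, against 2.83% of all tested genes, and the median was 0. *Greb1*, an estrogen receptor target, had a log2 ratio of 1.30 on few UMIs, at 3.19, 3.3, 7.28 and 8.73 CPM. *Cish*, a feedback inhibitor induced by prolactin and STAT5, measured 32.4, 29.7, 52.0 and 48.7 CPM, a log2 ratio of 0.70, which was also 0.70 in mature luminal cells and -0.03 in cluster 1.

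Stress genes, many of which respond to tissue digestion, were mostly lower in V943R without reaching the size required. The median of the 12 was -0.38, and lower ratios were also found in the references. *Fos* had -0.40 in cluster 3, -0.26 in cluster 1 and -0.24 in mature luminal cells. *Jun* had -0.42, -0.44 and -0.29, and *Atf3* had -0.37, -0.51 and -0.25 in the same order. *Hspa1b*, a heat shock protein, met the rule in the other direction with 0.74. In the basal list, 2 of 5 tested genes were higher, against 2.83% of all tested genes. These were *Acta2* and *Tagln*, both of contractile cells, with 0.88 and 0.92, and 19.5% and 9.19% of their UMIs were in 1 cell. The basal keratin *Krt14* had -0.07. *Slpi*, of the defense list, had 1.22, with 16.2% of its UMIs in 1 cell. Its ratio was 1.19 in mature luminal cells and -0.27 in cluster 1. None of 7 tested Notch genes and none of 21 luminal regulators met the rule, which at 2.83% higher and 1.03% lower over all tested genes is near the background.

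Genes called in cluster 3 were in part also called in the references. Of the 298 higher genes, 48 of the 189 tested in cluster 1 were called higher there, where 2.16% of all tested genes were. In mature luminal cells 62 of the 294 tested were called higher, against 2.86% of all tested genes. Of the 108 lower genes, 14 of 88 were called lower in cluster 1 and 17 of 94 in mature luminal cells, against 0.751% and 1.57% of all tested genes. Among genes tested in both references, 120 of 186 higher genes and 58 of 75 lower genes were called in neither. At the shares of all tested genes just given, most genes of any kind are called in neither. The counts are therefore not read as genes particular to cluster 3. The libraries of the 3 classes come from the same pools of mice. The sum fitted to cluster 3 in each genotype gave a median log2 ratio of 0.39 for the 298 genes, measured at 0.72, and of -0.29 for the 108 genes, measured at -0.69. The fitted sum had the same sign for 280 of the 298 and 96 of the 108, against 71.1% of all 10525 tested genes. Since these genes were chosen for a large ratio in cluster 3, a smaller ratio elsewhere is not read as a difference.

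The difference of the genotype ratio between cluster 3 and each reference was measured directly. Against cluster 1, of 11490 genes, 260 had a higher ratio in cluster 3 (2.26%) and 337 a lower one (2.93%) by the rule of size. Against mature luminal cells, of 12074 genes, 185 were higher (1.53%) and 167 lower (1.38%). The limma fit of the same differences called 0 genes in either, with smallest adjusted p of 0.705 and 0.78, and 776 and 751 genes had an unadjusted p under 0.05. The largest differences were in genes with few UMIs. *Rps19-ps14*, a ribosomal pseudogene, had a log2 ratio of 1.58 in cluster 3 and -0.25 in cluster 1 on 62 UMIs, and *Ccl5*, a chemokine, had -2.68 and 0.10 on 57 UMIs. Of these *Ccl5* UMIs, 31.6% were in 1 cell. Its log2 ratios of cluster 3 to cluster 1 were 0.74, -0.39, -0.4 and -3.18 by library, so V943R B carries much of the difference. *Cd74*, the invariant chain of immune antigen presentation, had -1.40 against 0.88 in mature luminal cells, with 29.7% of its cluster 3 UMIs in 1 cell. It measured 23.9, 5.78, 7.03 and 4.23 CPM in cluster 3, so the genotypes overlapped there and the ratio rests on WT A.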

How the data were processed

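Single-cell libraries were made with a droplet 3′ kit from 2 pools of sorted luminal cells, 1 per genotype. The submitters' processing notes name CASAVA 1.8, bcl2fastq 2.20, GSNAP and the build GRCm38, and the study's methods name Partek Flow and Seurat clustering. The authors deposited 1 table of a normalized signal per gene and cell (52636 genes) with library, cluster and cell type for each cell. Within a cell the deposited signal is its UMIs times 1 factor, on a linear scale, so UMIs were recovered by dividing by the cell's smallest step. In all, 100% of nonzero values came out whole within 0.02. Library letters follow the order of library names, since the table gives no replicate number.

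UMIs were summed by library and class and scaled to counts per 1000000 (CPM). The members, the lists and the comparisons were chosen with earlier results of these data known. Named genes were the 4 markers, list members, the 10 genes highest in cluster 3 against each other luminal cluster, 10 of the largest genotype ratios in each direction, *Erbb2*, *Erbb3* and up to 5 genes per direction of the contrast against the references. Of the 10 genes highest in cluster 3, 1 is not reported here. Genes outside this rule were chosen after their values were seen: those named for their distance from the fitted sum, their position, or their place above or below both references. Folds used 1.5, 50 UMIs and library non-overlap, and intervals were exact conditional binomial at 95%. The weighted sum was a non-negative least squares fit with squared errors divided by the level, chosen after the data were seen. Doublet scores came from scrublet in scanpy 1.11.5, with an expected rate of 6%, and no cell was removed as a doublet. Scripts ran in Python 3.11.15 and R 4.3.3 with limma 3.58.1 (0.5 UMIs added before log2). Simulated sums of UMIs were used to test the genotype rule, the limma fit and the contrast against cluster 1. They also served for the weighted sum, the gene positions and the genes beyond both references. Steps on single cells, doublet scores and the weights by cluster were not tested on simulated data. Positions are from the GENCODE annotation of GRCm38. Alternatives changed the cells, the references, the minimum, the fold, the scale and the libraries.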

Additional observations from a re-analysis of the deposited data

Results flagged for a closer look

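For 13 genes the V943R libraries lay on one side of the WT libraries in cluster 3 and on the other side in a reference. These genes were found among the named genes, the list members and the genes with the largest differences between cluster 3 and a reference, each with 50 or more UMIs on both sides. Some were thus chosen for a large difference, and no share over all genes was computed, so the count of 13 is not read as a result. The values are log2 ratios of V943R to WT, with 0.5 UMIs added. The opposite direction was not tested over mice, and a limma fit of library sums called 0 genes for the difference from either reference. In that fit 776 and 751 genes (6.75% and 6.22%) had an unadjusted p under 0.05. Ratios in mature luminal cells also carry the smaller share of cluster 11 in V943R. These ratios are not given with cluster 11 left out, so the part of that share in them was not tested.

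For 7 of them the ratios were far apart. *Acta2*, an actin of contractile cells, had 0.88 in cluster 3, 0.77 in cluster 1 and -0.25 in mature luminal cells, with 19.5% of its UMIs in 1 cell. *H2-Ab1*, an antigen presentation gene, had -1.12 in cluster 3, 0.61 in cluster 1 and 0.36 in mature luminal cells, with 13.6% in 1 cell. In cluster 3 it measured 7.44, 3.3, 1.76 and 3.17 CPM on 59 UMIs. Its ratio there leans on WT A, and WT B was close to V943R B. *Spry4*, a feedback inhibitor of receptor tyrosine kinase signaling, had 1.03 in cluster 3 and -0.17 in mature luminal cells on 54 UMIs. *Alkbh4*, a demethylase, had -0.92 against 1.05 in cluster 1 on 65 UMIs. *Zfp932* had -0.86 against 0.79 in cluster 1, *Gm42992* had 0.69, with 0.45 in cluster 1, against -1.34 in mature luminal cells, and *Dapk2*, a death-associated kinase, had -0.46 on 217 UMIs in cluster 3 against 0.18 in cluster 1 and 0.95 in mature luminal cells. In mature luminal cells, *Gm42992* was at only 0.74 and 0.285 CPM in WT and V943R. *Dapk2* was at only 0.405 and 0.788 CPM there, so both mature luminal ratios lie near the floor.

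Among well-measured genes the opposite ratios were small. *Mfge8*, a milk fat globule protein, had -0.14 in cluster 3 against 0.05 and 0.19, and *Plet1*, a progenitor surface protein, had -0.25 against 0.12 in mature luminal cells. *Prom1*, a surface marker of hormone-sensing cells, had 0.21 against -0.24 in cluster 1 and -0.09 in mature luminal cells. *Sox4*, a transcription factor, had 0.32 against -0.16 in cluster 1. *Notch1* and its target *Nrarp* had -0.12 and -0.14 against 0.23 and 0.36 in mature luminal cells.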

How the results depend on the processing

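No paired analysis was possible because the table carries no replicate number for its libraries. Limits are these: each genotype is 1 pool of mice, libraries of a pool share its cells, low genes have wide counting intervals, and cell classes come from the deposited clusters. Of values for single genes, 288 kept their side of the rule, 65 no longer met it, 3 newly met it and 4 changed direction. Direction was checked only for genes that met the rule over all cells and libraries. Of those that no longer met it, 14 were in shallow cluster 3 cells only, 11 without the top 6% of doublet scores and 12 at a minimum of 100 UMIs, of 26 genes each.

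Leaving out the top 6% of doublet scores of each library, the depth ratio to mature luminal cells was 1.55 (1.65 as the mean over libraries), the median positions were 0.281 and 0.263 (0.295 for genes higher in cluster 1, 0.277 for genes higher in mature luminal cells), the fitted weight of cluster 1 was 29.2% (30.2%), 84.4% of genes were within 1.25-fold of the fit (86.9%), 4 genes were below both references (11) and 97.8% of cells had both lists (98.8%). Without the 10% of cells with the fewest UMIs, the depth ratio to cluster 1 was 2.59 (3.37), the position on the cluster 1 side 0.306, genes within 1.25-fold 86.1%, genes below both 23 and co-detection 98.9%. Without cluster 11 in the mature luminal reference, the mature side position was 0.293, genes within 1.25-fold 86.0% and genes below both 17. Without clusters 5 and 6, these were 0.314, 88.5% and 0, the weight was 31.4% and the median log2 ratio of the cycling list to the fit was 0.46 (-0.84); genes of division are high in those clusters. With clusters 1 and 2 as the progenitor reference, the cluster 1 side position was 0.32, genes within 1.25-fold 84.9% and genes below both 77. On the log2 scale the positions were 0.596 and 0.138, by the scale's construction. With the mean over cells of CPM they were 0.308 and 0.289, and 2 genes were below both. A fold of 2 left 0 genes below both, and a minimum of 20 UMIs gave 2 above both (0). Co-detection was 99.8% both unthinned and at 2000 UMIs.

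For the genotypes, 638, 139, 38 and 42 genes were higher (298) and 327, 48, 14 and 29 lower (108) with a minimum of 20 UMIs, of 100 UMIs, a fold of 2, and in shallow cluster 3 cells only. In those cells, a choice made after seeing the data, *Gm13437* had -0.01, *Aqp1* 0.65, *Lrmda* 1.22 and *Oasl2* 0.73, against the direction over all cells, and the cause was not tested. Over all cells these genes had 15 and 50, 54 and 16, 57 and 25, and 59 and 26 UMIs in WT and V943R. The 203 shallow cells hold only part of these, so those ratios rest on few UMIs and are not read as a reversal. Against cluster 1, 534 and 97 genes were higher (260) and 698 and 150 lower (337) with minimums of 20 and 100 UMIs. Against mature luminal cells, 455 and 58 were higher (185) and 434 and 53 lower (167). A limma fit called 0 in each.

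Leaving out 1 library at a time gave 86.3% to 87.3% of genes within 1.25-fold, 0 to 2 genes above both, 11 to 20 below both, co-detection of 98.7% to 99%, 161 to 479 genes higher and 105 to 271 lower in V943R, and 211 to 283 higher against mature luminal cells. With 1 library fewer, the requirement that libraries not overlap is easier to meet and fewer UMIs count toward the minimum, and counts moved in both directions. Mixture alternatives, and leaving out libraries in the contrast against the references, were chosen after seeing the data.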

Other observations

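Cells at positions between the references were also found outside cluster 3. In cluster 1, 415 of 5385 cells lay between 0.2 and 0.8, with a median of 4630 UMIs, above the cluster's median of 1719 to 2016 UMIs by library. The cycling progenitor cluster 2 had 365 of 919 cells in that range (39.7%), with a median of 4813 UMIs, above the cluster's 3194 to 4124 by library. The cycling mature luminal clusters 5 and 6 had 8.56% and 14.8%, with medians of 4720 and 4055 UMIs. The other mature luminal clusters had 0.0438% to 5.23% of their cells there, with medians of 1242 to 3309 UMIs. Unlike in clusters 1 and 2, such cells of clusters 4 and 6 to 11 had a median depth below that of their cluster in every library. In cluster 4 it was 2698 UMIs, against 3060 to 3768 by library. Cluster 10 had only 2 such cells. In cluster 5 the median lay within the range of the library medians, 4570 to 5823. The rare clusters 12 and 13 had the highest share, 85% of 240 cells, with a median position of 0.55.

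Genes of the steroid and prolactin response were, at the median, 0.18 above the fitted sum on the log2 scale, with 4 of 12 measured members more than 1.25-fold above it and 0 below, against 7.15% above and 4.66% below among all genes with 50 or more UMIs. *Greb1* was at 5.67 CPM in cluster 3, 0.61 in cluster 1 and 4.66 in mature luminal cells, and *Cish* at 41.0, 25.6 and 34.1 CPM. The alveolar and milk list was at -0.16, and the progenitor list at -0.09. Ribosomal protein transcripts made up 7.85% to 8.42% of UMIs in cluster 3, 8.03% to 8.57% in cluster 1 and 6.91% to 7.27% in mature luminal cells.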
